A study of Mus musculus with 79 samples.

Results

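Noradrenaline and histamine reach striatal and cortical neurons through families of G protein-coupled receptors, and 9 genes of these families were compared here: Adra1a, Adra1b and Adra1d for the alpha1-adrenergic receptors, Adra2a and Adra2c for alpha2-adrenergic receptors, Adrb1 for the beta1-adrenergic receptor, and Hrh1, Hrh2 and Hrh3 for the histamine H1, H2 and H3 receptors. They were chosen by gene name and are 9 of the 25899 genes in the deposited table. The table held 79 mouse brain libraries made from mRNA bound to ribosomes. For dorsal striatum there were 15 libraries of D1 and 16 of D2 neurons, for ventral striatum (nucleus accumbens) 15 of D1 and 14 of D2 neurons, and for prefrontal cortex 19 of D1 neurons. In all groups the mRNA was taken by bacTRAP, in which a bacterial artificial chromosome transgene places green fluorescent protein on the ribosomal protein L10a so that the ribosomes of 1 cell population can be pulled down with an antibody. The Drd1a promoter drove the transgene in the D1 groups and the Drd2 promoter in the D2 groups, so each group is defined by promoter use rather than by a sort of cells. All mice were heterozygous for the transgene on a C57BL/6J background, no drug or other treatment is labelled, and the labels used here give no age. Each library pooled tissue of 3 mice, with both sexes in the pool except in 2 cortical libraries whose sex label is incomplete. The comparisons ask how receptor expression in neurons that receive dopamine depends on the dopamine receptor they carry and on the brain region.

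The receptors sort by the G protein they use. Alpha1 and H1 receptors couple to Gq and phospholipase C, beta and H2 receptors couple to Gs and raise cyclic AMP, and alpha2 and H3 receptors couple to Gi/o and lower it. Noradrenaline comes from the locus coeruleus, whose fibres are dense in cortex and sparse in dorsal striatum, and histamine comes from the tuberomammillary nucleus of the hypothalamus. The H3 receptor is known both as an autoreceptor on histamine neurons and as a receptor on striatal projection neurons, and the alpha2C receptor is known as the main alpha2 receptor of the striatum.

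Promoter sequence is shown for Hrh2 and Hrh3, which differed between D1 and D2 neurons of dorsal striatum in opposite directions. RefSeq (GRCm38.p6) promoter windows matched 7 of the 9 genes, and the bases printed are those before the first exon that GENCODE M21 gives the gene, 5′ to 3′ on the gene's strand. Adra2c, also called between these groups, is not shown because only 3 bases of its window lay before its first exon. The part of promoter sequence in the differences between D1 and D2 neurons was not tested. Capitals mark the GC box, the motif GGGCGG or its other-strand form CCGCCC; matches that share bases are both counted. The Hrh2 window is chr13:54191883-54192128 on the plus strand (246 bases), and the Hrh3 window is chr2:180104489-180104657 on the minus strand (169 bases).
Hrh2: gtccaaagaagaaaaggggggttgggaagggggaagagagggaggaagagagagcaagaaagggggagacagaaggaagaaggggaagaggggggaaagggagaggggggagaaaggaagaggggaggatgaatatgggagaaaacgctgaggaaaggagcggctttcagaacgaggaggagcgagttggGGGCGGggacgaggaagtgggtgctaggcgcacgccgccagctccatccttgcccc
Hrh3: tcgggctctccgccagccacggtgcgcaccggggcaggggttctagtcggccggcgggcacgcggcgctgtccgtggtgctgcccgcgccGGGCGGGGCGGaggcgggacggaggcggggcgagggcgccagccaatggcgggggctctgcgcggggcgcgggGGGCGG
The Hrh3 window was 82.8% G and C and held 28 CpG dinucleotides and 3 GC boxes, whereas the Hrh2 window held 9 CpG dinucleotides and 1 GC box. A GC box was present in 19.3% of all 32817 RefSeq windows cut at the Hrh3 length and in 32.2% of those cut at the Hrh2 length. At most as many CpG as in Hrh3 were found in 99.1% of windows, against 62.7% for Hrh2.

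Depth and identity of the libraries were as follows. Reads in listed genes ran from 7.35 to 30.8 M (mega) per library with a median of 17.5 M, and 1 read was worth 0.0124 to 0.0466 CPM (gene reads scaled to a common library total). Drd1a averaged 225 CPM in D1 dorsal and 157 CPM in D1 ventral striatum against 15.2 and 16.8 CPM in the D2 groups, and Drd2 averaged 1146 and 656 CPM in the D2 groups against 6.30 and 8.97 CPM in the D1 groups. In prefrontal cortex Drd1a averaged 18.8 CPM, nearer to the D2 than to the D1 groups of striatum. The series holds no other cortical group to set beside it, so this level cannot test the D1 label of that group, which rests on promoter use. Slc17a7, the vesicular glutamate transporter of cortical excitatory neurons, averaged 259 CPM in prefrontal cortex, 36.7 and 27.3 CPM in D1 dorsal and ventral striatum, and 3.77 and 5.60 CPM in D2 dorsal and ventral striatum. Over the cortical excitatory list without Nrgn, a gene striatal neurons also express and which was left out after its values were seen, the sum of 5 markers ranged from 33.2 to 140 CPM in D1 and from 1.56 to 37.1 CPM in D2 dorsal striatum. Of 6 listed cortical markers, 5 were called higher and 1 lower in D1 than in D2 dorsal striatum. GABA interneuron markers summed to 35.2 CPM in D1 and 15.1 CPM in D2 dorsal striatum, and cholinergic interneuron markers to 1.29 and 9.69 CPM. Astrocyte markers summed to 27.7 CPM in prefrontal cortex, 6.45 CPM in D1 dorsal and 4.19 CPM in D1 ventral striatum, and 5 of 5 were called higher in cortex than in either. GABA interneuron markers summed to 160 CPM in cortex against 35.2 and 30.3 CPM, with 6 of 6 called higher than in D1 dorsal and 5 of 6 higher than in D1 ventral striatum. Striatal projection neuron markers, a list that includes Rgs9, summed to 220 CPM in cortex against 2847 CPM in D1 dorsal and 1855 CPM in D1 ventral striatum, with 6 of 6 called lower in cortex each time. They were also higher in dorsal than in ventral striatum, 5 of 6 in D1 and 6 of 6 in D2 neurons, and 4 of 6 were lower in D1 than in D2 dorsal striatum (2847 against 3896 CPM). Of 5 GABA interneuron markers tested between regions, 4 were lower in D2 dorsal than in D2 ventral striatum (summed list 15.1 against 34.2 CPM). In D1 neurons 3 of 5 were higher and 2 lower in dorsal striatum (35.2 against 30.3 CPM). The part of these cells in the receptor differences was not tested. In such pooled tissue, fewer cells of a type and less mRNA per cell cannot be told apart. Library names begin with 1 of 4 letter codes, EM, OdP, BdP and JAG, whose meaning is not labelled; OdP libraries made up 8 of 16 in D2 dorsal and 5 of 14 in D2 ventral striatum, 1 of 15 in D1 ventral striatum and 0 in the other groups.

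**Figure D1:**
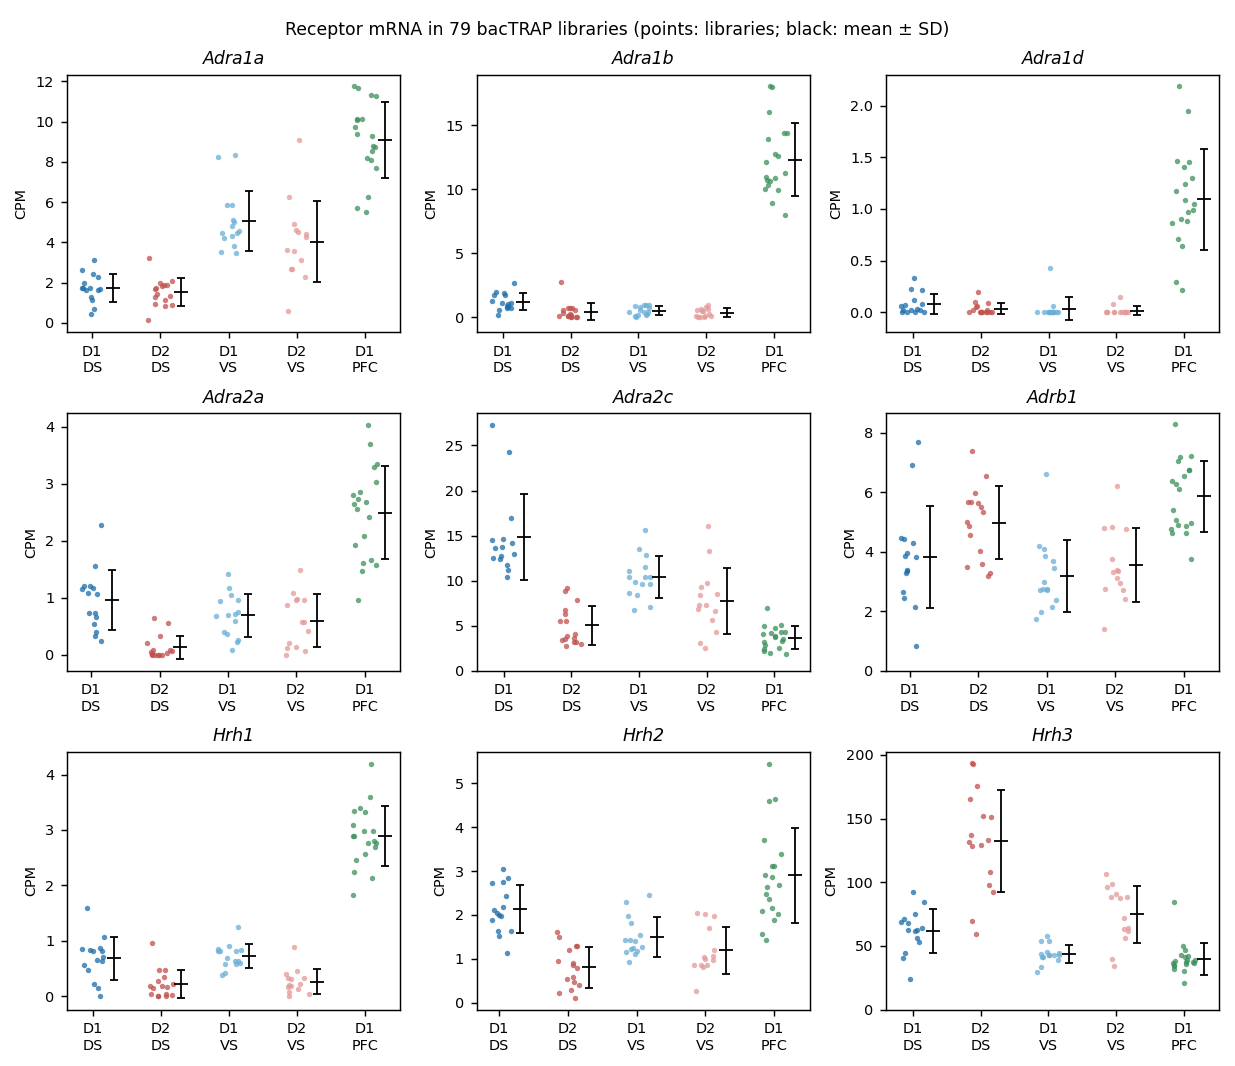
CPM of each receptor gene in every library (points) with the mean ± SD of each group (black), for D1 and D2 dorsal striatum (DS), D1 and D2 ventral striatum (VS) and D1 prefrontal cortex (PFC). Adra1b lies between 7.997 and 18.1 CPM in the 19 cortical libraries and at or below 2.77 CPM in all striatal libraries, and Hrh3 is highest in D2 dorsal striatum.

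Levels of different genes can be compared only per length of exon. Hrh3 was the most abundant of the 9 in every group on this scale, with a mean of 42.0 ± 12.6 CPM per kb in D2 dorsal striatum (SD, n = 16) and 12.7 ± 3.94 CPM per kb in prefrontal cortex (SD, n = 19). Adra2c was next in D1 dorsal striatum at 4.31 ± 1.38 CPM per kb (SD, n = 15), and in prefrontal cortex Adra1b came second at 3.64 ± 0.84 CPM per kb (SD, n = 19). Adrb1 spanned a narrow range, from 0.946 CPM per kb in D1 ventral striatum to 1.74 CPM per kb in prefrontal cortex. Adra1d was lowest in the 4 striatal groups, between 0.00839 and 0.0418 CPM per kb.

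**Figure D2:**
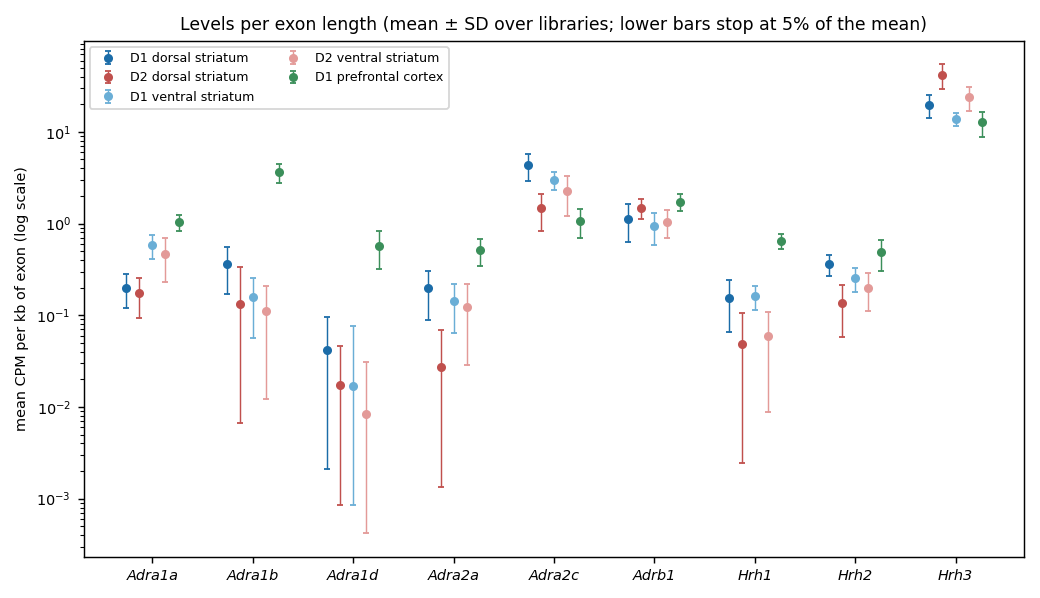
Mean CPM per kb of exon (log axis) for the 9 receptor genes in the 5 groups, with the SD over libraries; lower bars are stopped at 5% of the mean. Hrh3 lies above the other 8 genes in each group, and Adra1d lies lowest in each striatal group.

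Differences were tested on the log2(CPM + 0.5) scale with limma, and a gene is called where its p, adjusted over all genes that reached 1 CPM in enough libraries, was under 0.05. In dorsal striatum Adra2c and Hrh2 were higher in D1 and Hrh3 in D2 neurons, so 3 of the 5 receptor genes tested were called, where 25.9% of all genes tested were called. Hrh2 reached 1 CPM in 15 of 15 D1 and 5 of 16 D2 libraries, so with a filter of 15 libraries it entered only with the group in which it is high, and the count of 3 is partly set by the filter. Adra2c did not overlap between these groups, a pattern held by 1.18% of genes. In ventral striatum Adra2c and Hrh3 were called, 2 of 5, against 47.7% of all genes. Dorsal against ventral striatum called 4 of 5 genes in D1 (34.6% of all genes) and 4 of 4 in D2 neurons (28.5% of all genes). In D1 neurons 1 of the 5, Adra1a, did not overlap between regions, as did 2.65% of genes. Adra1a reached 1 CPM in 13 of 15 D1 dorsal libraries and Hrh2 in 14 of 15 D1 ventral libraries, so both passed the filter only with libraries of the region in which they are higher, and this count too is partly set by the filter. Cortex against D1 dorsal striatum called 8 of 8 receptor genes and 54.8% of all genes: 6 were higher in cortex (32.3% of all genes) and Adra2c and Hrh3 were lower (22.5%). Of these 8, Adra1a, Adra1b, Hrh1 and Adra2c did not overlap, as did 10.5% of genes. The filter of 15 libraries at 1 CPM bears on this count: of the 15 D1 dorsal libraries 2 reached 1 CPM for Hrh1, 8 for Adra2a, 9 for Adra1b, 13 for Adra1a and 14 for Adrb1, so these 5 of the 6 cortex-high genes entered only with the cortical libraries. Cortex against D1 ventral striatum, which shares the cortical libraries, called 7 of 8 and 62.8% of all genes, with 6 higher (27.7% of all genes) and Adra2c lower (35.1%). Adra1b and Hrh1 did not overlap there, as did 12.6% of genes. Here 0 of 15 D1 ventral libraries reached 1 CPM for Adra1b, 1 for Hrh1, 3 for Adra2a and 14 for Hrh2, so 4 of the 6 cortex-high genes entered only with the cortical libraries, and neither count of cortex-high receptors stands as support for a direction. The change of the D1 minus D2 difference between striatal regions was called for Adra2c and Hrh2, 2 of 5, and for 2.64% of all genes.

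The number of males in the pool, 2 against 1, gave 0 of 5 calls with limma and 0 with edgeR, where limma called 0.0961% of all genes. At an unadjusted p under 0.05 there were 2 receptor genes, Hrh3 (p = 0.0165) and Adrb1 (p = 0.0211), and 13.9% of all genes. In both dorsal against ventral comparisons the median of all genes tested stood at -0.12, and median-ratio scaling moved it by 0.10 in D1 and 0.12 in D2 neurons. Dorsal-high genes made up 29.2% of all D1 calls as deposited and 50.4% after that scaling, and 27.8% and 51.2% of all D2 calls.

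**Figure D3:**
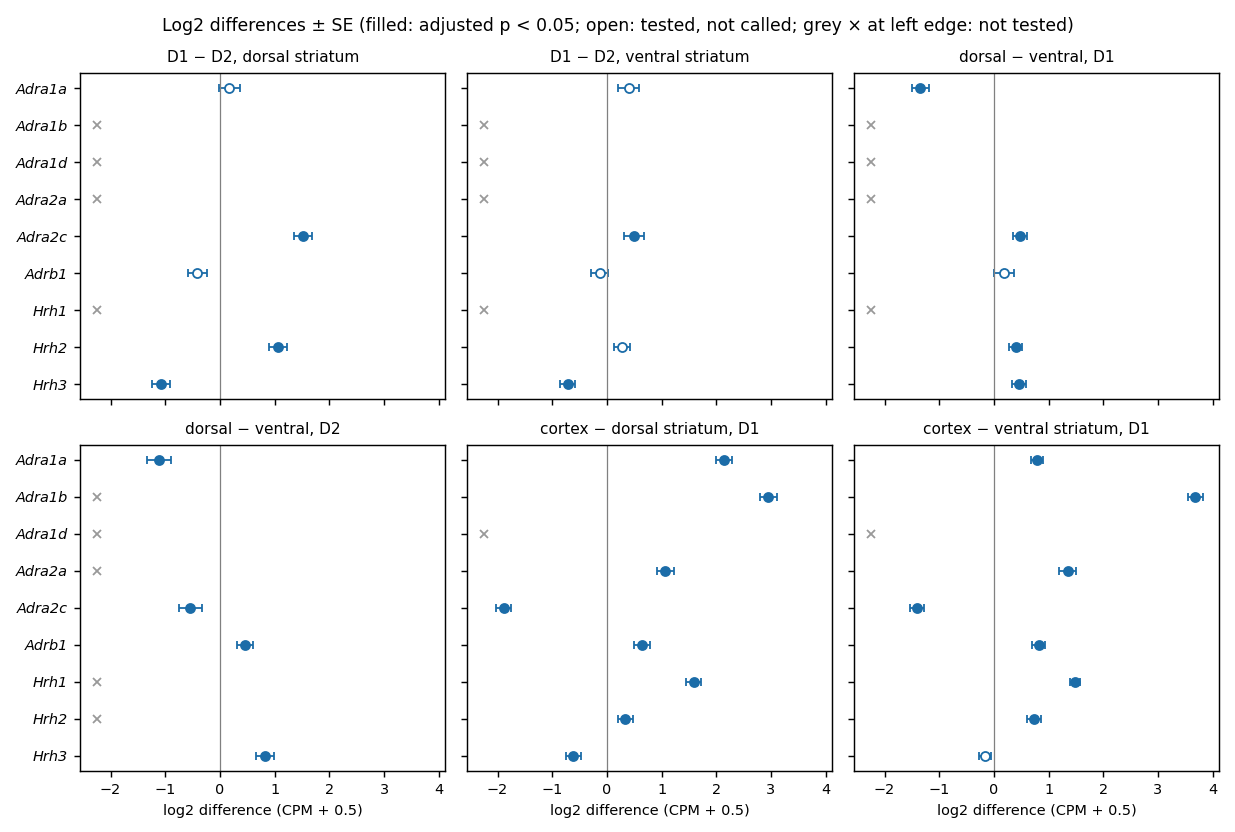
Log2 differences with SE for each receptor gene in the 6 comparisons of 2 groups, on the log2(CPM + 0.5) scale; filled points were called at an adjusted p under 0.05, open points were tested and not called, and grey crosses at the left edge were not tested. Adra1b reaches 3.69 between cortex and ventral striatum, and Adra2c lies at 1.52 and Hrh3 at -1.08 between D1 and D2 dorsal striatum.

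All 3 alpha1 receptor genes had their highest mean in prefrontal cortex, and Adra1a also separated ventral from dorsal striatum. Adra1a (chr14:66635251-66771168, plus strand) ran from 0.425 to 3.13 CPM in D1 dorsal striatum (median 1.72) and from 0.127 to 3.20 CPM in D2 dorsal striatum (median 1.58). In ventral striatum it ran from 3.46 to 8.32 CPM in D1 (median 4.56) and from 0.582 to 9.11 CPM in D2 libraries (median 3.93), and in prefrontal cortex from 5.49 to 11.8 CPM (median 9.29). All 15 D1 ventral libraries lay above all 15 D1 dorsal libraries, while the D2 regions overlapped. The dorsal minus ventral log2 difference was -1.34 (SE 0.15, limma adjusted p = 1.27e-08) in D1 and -1.12 (SE 0.23, adjusted p = 0.000213) in D2 neurons. Cortex exceeded D1 dorsal striatum by 2.14 (SE 0.14, adjusted p = 6.26e-17) and D1 ventral striatum by 0.79 (SE 0.11, adjusted p = 5.02e-08). D1 and D2 neurons did not pass the test for Adra1a in either striatal region, with log2 differences of 0.17 in dorsal (adjusted p = 0.528) and 0.40 in ventral striatum (adjusted p = 0.0913). The ventral value was 0.54 with adjusted p = 0.0382 within the EM libraries, and 0.50 with adjusted p = 0.0325 after scaling to the reads in genes.

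Adra1b (chr11:43774606-43901210, minus strand) showed the largest differences among the receptor genes tested. It averaged 12.3 ± 2.85 CPM in prefrontal cortex (SD, n = 19), 1.24 ± 0.66 CPM in D1 dorsal striatum (SD, n = 15) and between 0.373 and 0.530 CPM in the other 3 groups. The lowest cortical library, at 7.997 CPM, stood above the highest striatal library of any group. Cortex exceeded D1 dorsal striatum by a log2 difference of 2.95 (SE 0.15, adjusted p = 1.89e-20) and D1 ventral striatum by 3.69 (SE 0.14, adjusted p = 3.97e-25). The summed astrocyte, GABA interneuron and cortical excitatory markers stood higher in cortex as well, as for the other receptor genes called higher there, and their part in these results was not tested. Within striatum too few libraries reached 1 CPM for the gene to enter the tests. With no such filter, dorsal D1 neurons exceeded dorsal D2 neurons (0.98, adjusted p = 0.00252) and dorsal D1 striatum exceeded ventral D1 striatum (0.73, adjusted p = 0.00466). The D1 minus D2 value was 0.81 (adjusted p = 0.0613) within EM libraries, and Slc17a7 moved with it, at 36.7 CPM in D1 and 3.77 CPM in D2 dorsal striatum; its part in the result was not tested.

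Adra1d (chr2:131545850-131562283, minus strand) was close to absent from striatum. It had 0 reads in 4 of 15 D1 dorsal, 9 of 16 D2 dorsal, 13 of 15 D1 ventral and 12 of 14 D2 ventral libraries, and at least 6 reads in each of the 19 cortical libraries, which ran from 0.210 to 2.19 CPM (median 1.05). It passed the filter in 0 of the 6 comparisons. Without the filter, cortex exceeded D1 dorsal striatum by 1.41 (adjusted p = 2.76e-11) and D1 ventral striatum by 1.53 (adjusted p = 2.43e-12), and 17 of 19 cortical libraries lay above every library of the striatal group in each case. An annotated antisense gene, Gm14285, overlaps its exons, and the libraries do not mark strand, so reads of the pair cannot be told apart. Gm14285 was itself low, at 0.281 ± 0.126 CPM in cortex (SD, n = 19).

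Of the alpha2 receptors, Adra2c had its lowest mean and Adra2a its highest in prefrontal cortex. Adra2c (chr5:35278319-35281763, plus strand) had its highest mean in D1 dorsal striatum, where libraries ran from 10.4 to 27.3 CPM (median 13.6). D2 dorsal libraries ran from 2.76 to 9.24 CPM (median 4.00), so that the groups did not overlap. The corresponding ranges were 6.73 to 15.6 CPM in D1 ventral striatum (median 10.4), 2.57 to 16.02 CPM in D2 ventral striatum (median 7.28) and 1.87 to 6.95 CPM in prefrontal cortex (median 3.72). In dorsal striatum Adra2c was 2.95-fold higher in D1 by group means, a log2 difference of 1.52 (SE 0.16, adjusted p = 2.17e-09). The ventral difference was smaller in size, 0.50 (SE 0.18, adjusted p = 0.0218) with overlapping groups. The change of the D1 minus D2 difference between regions was itself called, at 1.02 (SE 0.25, adjusted p = 0.00835).

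Name codes moved with Adra2c among D2 libraries. In D2 dorsal striatum the 8 OdP libraries ran from 2.76 to 3.89 CPM and the 8 EM libraries from 4.10 to 9.24 CPM, a log2 difference of 0.89 (SE 0.15, adjusted p = 0.000226), where 30.2% of genes tested were called. Within EM libraries the dorsal D1 minus D2 difference was 1.12 (SE 0.18, adjusted p = 0.0001) and the ventral one was 0.12 (SE 0.14, adjusted p = 0.496), so the ventral call did not hold there; it was also lost by edgeR (0.43, adjusted p = 0.0505) and with a term for each library's share of reads in genes (0.37, adjusted p = 0.374). The regional contrast was 1.00 (SE 0.23, adjusted p = 0.0092) within EM libraries. Dorsal against ventral striatum gave opposite signs in the 2 neuron types: 0.48 (SE 0.12, adjusted p = 0.00242) in D1 and -0.54 (SE 0.21, adjusted p = 0.0473) in D2. The D2 value was -0.51 (adjusted p = 0.0671) within EM libraries and -0.59 (adjusted p = 0.0406) within OdP libraries. Its size was nearly kept where the call was lost without D2 ventral striatum replicate 2 (-0.54, adjusted p = 0.0606), with no filter (-0.54, adjusted p = 0.0817) and by edgeR (-0.49, adjusted p = 0.0983), and it ran from -0.50 to -0.41 under 3 other scalings (adjusted p from 0.077 to 0.121).

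Adra2a (chr19:54044151-54048982, plus strand) was low everywhere and highest in prefrontal cortex, at 2.49 ± 0.82 CPM (SD, n = 19) against 0.959 ± 0.526 CPM in D1 dorsal striatum (SD, n = 15). D2 dorsal striatum was the lowest group, at 0.131 ± 0.206 CPM (SD, n = 16), and 5 of its libraries had 0 reads. Cortex exceeded D1 dorsal striatum by 1.07 (SE 0.16, adjusted p = 2.29e-07) and D1 ventral striatum by 1.35 (SE 0.15, adjusted p = 3.09e-10). It did not enter the striatal tests; in the fit with no filter D1 exceeded D2 in dorsal striatum by 1.18 (adjusted p = 1.41e-06) and not in ventral striatum (0.16, adjusted p = 0.589), and the change between regions was 1.02 (adjusted p = 0.0242). Within EM libraries, where the gene passed the filter, that change was 1.23 (adjusted p = 0.00451). Slc17a7 was likewise lowest in D2 dorsal striatum, and its part in the result was not tested.

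A further alpha2 gene outside the 9, Adra2b, was the only one of 4 other listed adrenergic and histamine receptors to pass the filter and ran the other way to Adra2a between cortex and striatum. It averaged 2.45 ± 0.84 CPM in D1 dorsal striatum (SD, n = 15), 3.23 ± 0.95 CPM in D1 ventral striatum (SD, n = 15) and 0.0359 ± 0.0536 CPM in prefrontal cortex (SD, n = 19), where 11 libraries had 0 reads. Cortex was lower by 2.42 than D1 dorsal striatum on the log2 scale (adjusted p = 7.8e-22). No cortical library reached the range of the D1 dorsal libraries, and 10.5% of genes likewise did not overlap in that comparison. Adra2b reached 1 CPM in 15 of 15 D1 dorsal, 15 of 15 D1 ventral, 11 of 16 D2 dorsal, 9 of 14 D2 ventral and 0 of 19 cortical libraries. Over all libraries it thus entered the tests given here only with D1 striatal libraries, in which it is high. D1 exceeded D2 by 0.77 in dorsal (adjusted p = 0.000254) and by 1.18 in ventral striatum (adjusted p = 1.46e-05), and within EM libraries by 0.49 (adjusted p = 0.0702) and 0.80 (adjusted p = 0.00134).

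Adrb1 (chr19:56722199-56733113, plus strand), the beta1 receptor, was the most even of the 9. Group means lay between 3.20 ± 1.21 CPM in D1 ventral striatum (SD, n = 15) and 5.87 ± 1.19 CPM in prefrontal cortex (SD, n = 19), with overlapping libraries in every comparison. Cortex exceeded D1 dorsal striatum by 0.64 (SE 0.15, adjusted p = 0.000414) and D1 ventral striatum by 0.82 (SE 0.12, adjusted p = 1.05e-07). In D2 neurons dorsal exceeded ventral striatum by 0.46 (SE 0.15, adjusted p = 0.0169), 0.31 (adjusted p = 0.372) within EM and 0.66 (adjusted p = 0.0195) within OdP libraries. D1 and D2 neurons gave differences of -0.42 in dorsal (adjusted p = 0.0688) and -0.13 in ventral striatum (adjusted p = 0.512). The dorsal difference passed the test with all 5 groups in 1 fit (-0.42, adjusted p = 0.0292) and after quantile normalization (-0.49, adjusted p = 0.0257).

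Hrh1 (chr6:114397936-114483296, plus strand) had its highest mean in prefrontal cortex, at 2.89 ± 0.55 CPM (SD, n = 19). The lowest cortical library, at 1.82 CPM, stood above the highest striatal one, at 1.58 CPM. Cortex exceeded D1 dorsal striatum by 1.58 (SE 0.14, adjusted p = 3.05e-13) and D1 ventral striatum by 1.48 (SE 0.09, adjusted p = 1.81e-17). In striatum D1 groups averaged 0.682 and 0.720 CPM and D2 groups 0.217 and 0.261 CPM, all under the filter; the fits with no filter gave D1 minus D2 differences of 0.71 in dorsal (adjusted p = 0.00281) and 0.71 in ventral striatum (adjusted p = 3.66e-05). Slc17a7 was higher in D1 than D2 striatum of both regions as well, and its part in this was not tested.

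Hrh2 (chr13:54192129-54236180, plus strand) was higher in D1 than in D2 dorsal striatum. D1 dorsal libraries ran from 1.14 to 3.04 CPM (median 2.05) and D2 dorsal libraries from 0.109 to 1.62 CPM (median 0.828), and 13 of the 15 D1 libraries lay above every D2 library. The log2 difference was 1.06 (SE 0.16, adjusted p = 4.26e-06). Ventral medians were 1.40 CPM in D1 and 1.02 CPM in D2, a difference of 0.28 (SE 0.15, adjusted p = 0.13). The change between regions was 0.79 (SE 0.22, adjusted p = 0.0338), but 0.67 with adjusted p = 0.195 within EM libraries and 1.04 with adjusted p = 0.0922 by edgeR on the recovered reads. Dorsal exceeded ventral striatum in D1 by 0.40 (SE 0.12, adjusted p = 0.0085), which was 0.27 with adjusted p = 0.128 within EM libraries. Cortex was the highest group at 2.90 ± 1.08 CPM (SD, n = 19), exceeding D1 ventral striatum by 0.73 (SE 0.13, adjusted p = 5.61e-06) and D1 dorsal striatum by 0.34 (SE 0.13, adjusted p = 0.0323), a call lost by edgeR at about the same size (0.35, adjusted p = 0.0697), after median-ratio scaling (0.28, adjusted p = 0.0755) and after quantile normalization (0.12, adjusted p = 0.485). The overlapping antisense gene Gm16578 was at 0.171 CPM or less in every group mean.

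Hrh3 (chr2:180099465-180104488, minus strand) was higher in D2 neurons of both striatal regions. D2 dorsal libraries ran from 59.2 to 193 CPM (median 132) and D1 dorsal libraries from 24.2 to 92.7 CPM (median 62.8), and 13 of 16 D2 libraries lay above every D1 library. D2 ventral libraries ran from 34.2 to 106 CPM (median 79.6), D1 ventral libraries from 29.4 to 57.7 CPM (median 43.0) and cortical libraries from 20.7 to 84.2 CPM (median 37.3). The D1 minus D2 log2 difference was -1.08 (SE 0.16, adjusted p = 2.66e-06) in dorsal and -0.72 (SE 0.13, adjusted p = 6.35e-05) in ventral striatum; it was -1.05 and -0.70 within EM libraries, and the change between regions was -0.36 (adjusted p = 0.446). Dorsal exceeded ventral striatum by 0.46 (SE 0.13, adjusted p = 0.00588) in D1 and by 0.82 (SE 0.17, adjusted p = 0.000249) in D2 neurons. The projection neuron markers moved the same way as Hrh3 between regions, between D1 and D2 dorsal striatum and between cortex and D1 dorsal striatum, and their part in the result was not tested. Cortex was below D1 dorsal striatum, with a log2 difference of -0.62 (SE 0.14, adjusted p = 0.000186), and did not pass the test against D1 ventral striatum (-0.16, adjusted p = 0.191). Within EM libraries the test against D1 ventral striatum was passed, where 8 of 8 receptor genes and 63.7% of all genes were called. The EM means of Hrh3 were 35.9 CPM in cortex and 41.6 CPM in D1 ventral striatum. The antisense gene Gm17180 overlaps its exons and followed the same order, with means of 6.76, 14.9, 4.92, 8.65 and 4.43 CPM in D1 dorsal, D2 dorsal, D1 ventral, D2 ventral and cortex; reads of the pair cannot be told apart.

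**Figure D4:**
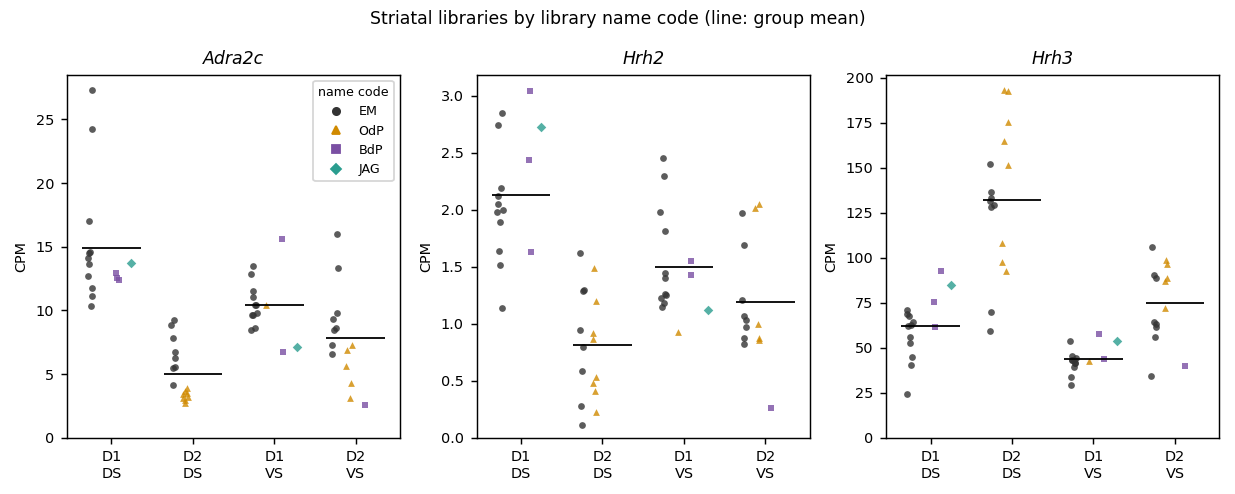
CPM of Adra2c, Hrh2 and Hrh3 in the striatal libraries, marked by the letter code that opens the library name, with a line at each group mean. For Adra2c in D2 dorsal striatum the 8 OdP libraries end at 3.89 CPM and the 8 EM libraries begin at 4.10 CPM, while both sets lie below all D1 dorsal libraries.

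Placing the 5 groups in order of their mean and testing each step in 1 fit of all groups gave 18 called steps of 32. Genes entered that fit with at least 1 CPM in 14 libraries. Adra1b, Adra2a and Hrh1 reached this only with the cortical libraries, in which they are high, so both counts are partly set by the filter. In that fit the pairs that share a region or a neuron type called 31.7% (D1 and D2 dorsal), 46.5% (D1 and D2 ventral), 29.5% (D1 dorsal and ventral) and 36.1% (D2 dorsal and ventral) of all genes. D1 dorsal and D2 ventral striatum gave 51.7% and D2 dorsal and D1 ventral striatum 51.5%. Cortex gave 54.0% against D1 dorsal, 56.1% against D1 ventral and 63.9% against D2 dorsal striatum. For Adra2c all 4 steps were called, from D1 dorsal through D1 ventral, D2 ventral and D2 dorsal striatum down to cortex. Within EM libraries the D1 against D2 ventral difference was 0.12, while the D2 dorsal minus ventral difference lost its call but stayed near its size, at -0.51. The last step was 0.37 (adjusted p = 0.0351) and differed by name code: the OdP libraries of D2 dorsal striatum averaged 3.32 CPM and the EM ones 6.76 CPM, against 3.68 CPM in cortex, which holds no OdP library. For Hrh3 the steps from D2 dorsal to D2 ventral and from D1 dorsal to D1 ventral striatum were called, and D2 ventral did not differ from D1 dorsal beyond the spread (0.26, adjusted p = 0.141), nor D1 ventral striatum from cortex (0.16, adjusted p = 0.343). Within EM libraries the test of D1 ventral striatum against cortex alone was passed for Hrh3, with means of 41.6 and 35.9 CPM. For Hrh1 the step from cortex to D1 ventral and that from D1 dorsal to D2 ventral striatum were called, and the steps between regions of D1 and of D2 striatum were not. In striatum Hrh1 reached 1 CPM in only 2 D1 dorsal, 1 D1 ventral and 0 D2 libraries. For Adra1a the order was cortex, ventral and dorsal striatum, with no called step between D1 and D2 of a region.

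Genes whose 5 group means lay closest to a receptor's, after each gene was centred on its own mean, were found among 12361 genes for the 8 receptors whose means spanned at least 1 on the log2 scale. The closest were Mrgpre for Adra1a (root mean square difference 0.10), Rspo2 for Adra1b (0.09), Aldh1a7 for Adra1d (0.02), Wnt10a for Adra2a (0.10), Tpbg for Adra2c (0.18), Doc2a for Hrh1 (0.04), 2310061C15Rik for Hrh2 (0.09) and Gm17180 for Hrh3 (0.03), whose exons overlap those of Hrh3 so that their reads cannot be told apart. For Hrh3 the next was Angptl2 (0.09), a low gene at 1.17 CPM in D2 dorsal striatum. Adrb1 spanned 0.82 and was not compared.

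The ligand side was thin in these libraries. Dbh, which makes noradrenaline, and Hdc, which makes histamine, had group means of at most 0.0446 and 0.0399 CPM, and the noradrenaline transporter gene Slc6a2 was listed at 0 in all striatal libraries. Of 13 listed genes of synthesis, transport and breakdown, 6 were tested between D1 and D2 dorsal striatum and 1 was called, where 25.9% of all genes were called. This was Slc22a3, an uptake transporter for monoamines and histamine, at 4.76 ± 0.868 CPM in D1 against 2.87 ± 1.05 CPM in D2 (0.70, adjusted p = 0.000295). Between D1 and D2 ventral striatum 8 were tested, with 3 higher in D1 (24.1% of all genes) and 4 lower (23.6%). In cortex 4 of 7 were higher and 2 lower than in D1 dorsal striatum (32.3% and 22.5%), and 4 of 8 higher and 3 lower than in D1 ventral striatum (27.7% and 35.1%). In dorsal against ventral striatum 1 of 8 was higher and 3 lower in D1 (10.1% and 24.5%), and 2 of 7 higher and 2 lower in D2 neurons (7.93% and 20.6%). Slc22a3 was also higher in dorsal than in ventral striatum by 1.01 in D1 (adjusted p = 9.42e-11) and lower in cortex than in D1 dorsal striatum, with -2.85 (adjusted p = 3.53e-23). Its highest cortical library was at 0.666 CPM, so Slc22a3 entered the cortical comparison only with the D1 dorsal libraries, in which it is high. Maob, a monoamine-degrading oxidase, was higher in cortex than in D1 dorsal striatum by 1.35 (adjusted p = 1.52e-10). Th, which makes the catecholamine precursor L-DOPA, averaged 5.40 CPM in cortex against 1.08 CPM in D1 dorsal striatum with no overlap, a pattern held by 10.5% of genes (1.89, adjusted p = 4.74e-15). The lowest D1 dorsal library was at 0.926 CPM for Maob and 0.465 CPM for Th, so both passed the filter only with cortical libraries. Ddc, the decarboxylase that follows Th, was lower in dorsal than in ventral striatum, at 0.218 against 2.45 CPM in D1 neurons (-2.06, adjusted p = 5.2e-15) and 0.537 against 3.28 CPM in D2 neurons (-1.89, adjusted p = 7.48e-11). No D1 dorsal library passed 0.635 CPM for Ddc, and it entered both tests only with the ventral libraries, in which it is high.

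The coupling genes moved in both directions. Of 12 listed Gi/o genes, 11 were tested between D1 and D2 dorsal striatum, with 4 higher (12.84% of all genes) and 2 lower (13.05%), and Gnai1, an inhibitory alpha subunit, was higher in D1 by 1.54 (SE 0.16, adjusted p = 1.05e-09), at 110 against 38.1 CPM. Against cortex 7 were higher and 4 lower in cortex than in D1 dorsal striatum: the potassium channel subunit gene Kcnj6 rose by 2.60 (adjusted p = 2.7e-14) and Rgs9, which speeds the shut-off of Gi/o signals in striatum, fell by 4.28 (adjusted p = 3.55e-20). The channel subunit genes Kcnj3 and Kcnj9 were higher in cortex by 1.70 and 1.42 (adjusted p = 4.28e-15 and 5e-08), and Gnai2, another inhibitory alpha subunit, by 1.21 (adjusted p = 7.62e-10). Among regulators of the same kind as Rgs9, Rgs4 fell by 2.17 and Rgs8 by 1.09 (adjusted p = 2.67e-20 and 5.16e-14), and Rgs14 was lower in cortex than in D1 ventral striatum, at 4.91 against 13.4 CPM (-1.38, adjusted p = 8.12e-15). Between the striatal regions of D1 neurons Rgs4 was higher in dorsal striatum, at 675 against 259 CPM, and Gnai2 in ventral striatum, at 36.2 against 15.4 CPM. Of 12 Gs genes, 6 were higher and 5 lower in cortex than in D1 dorsal striatum. Gnal and Adcy5, the stimulatory subunit and the cyclase that predominate in striatum, fell by 2.19 and 3.39 (adjusted p = 4.82e-17 and 6.98e-26), and Gnas and Adcy1 rose by 2.51 and 1.79 (adjusted p = 7.3e-21 and 1.26e-16). The cyclase genes Adcy2 and Adcy8 rose by 2.36 and 1.55 (adjusted p = 4.12e-17 and 1.92e-09). The lowest D1 dorsal library was at 0.934 CPM for Adcy2, 0.0203 CPM for Adcy8 and 0.0842 CPM for Kcnj6. These genes passed the filter only with cortical libraries, in which they are high. Of the regulatory subunits of protein kinase A, Prkar1b was higher in cortex by 1.13 and Prkar2b lower, at 23.4 against 57.5 CPM (-1.29, adjusted p = 9.45e-18). Prkar1b was also higher in D1 than in D2 dorsal striatum, at 138 against 68.3 CPM (1.00, adjusted p = 1.26e-11). Of 8 Gq genes, 7 were tested and 3 rose and 3 fell in cortex against D1 dorsal striatum, with Plcb4, a phospholipase C, higher by 2.07 (adjusted p = 1.92e-16). Of 7 kinase and arrestin genes that shut receptors off, 6 were tested, with 5 higher and 0 lower in cortex than in D1 dorsal striatum, led by Adrbk2 at 20.7 against 3.65 CPM (2.45, adjusted p = 4.69e-18) and with Adrbk1 at 34.1 against 15.5 CPM (1.12, adjusted p = 6.65e-12). Against D1 ventral striatum 4 were higher and 1 lower in cortex (27.7% and 35.1% of all genes). Among all genes tested between cortex and D1 dorsal striatum 32.3% were higher and 22.5% lower in cortex, and the median log2 difference was 0.05, against 0.42 for the Gi/o list, 0.22 for Gs, 0.18 for Gq and 0.58 for the kinases and arrestins.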

How the data were processed

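The authors deposited 1 table of CPM values, gene reads scaled to a common library total, for 25899 genes and 79 libraries; per the submitters' processing notes the build was GRCm38 and the tools were Trim Galore 0.4.2, cutadapt 1.9.1, FastQC and HISAT2, and the counting program and annotation are not given in the sources used here. Per the labels' protocols, cDNA was amplified and read as 50-base pairs without strand. All columns were matched to samples by name. Dividing by the value of 1 read gave whole reads for 100% of values above 0 (tolerance 0.01), and these reads, with no molecular identifiers, bound counting error only. Groups were taken from the receptor and region labels; replicate numbers only name libraries, each a pool of mice, the labels used here do not tie libraries to shared mice, and p-values measure the spread between pools.

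Each comparison was fitted to all genes with limma 3.58.1 in R 4.3.3 (lmFit, eBayes with a trend) on log2(CPM + 0.5), which understates changes of low genes. Genes entered with at least 1 CPM in a number of libraries equal to the smaller group, and a call is a two-sided Benjamini-Hochberg adjusted p under 0.05. edgeR 4.0.16 on the recovered reads was an alternative; it called 2966 of 11090 genes between D1 and D2 dorsal striatum. Other alternatives were other pseudocounts, filters, scalings, name codes and covariates. The number of males was incomplete for 2 libraries, left out of that fit. Exon lengths and positions are from GENCODE M21. All 9 receptors are named; list genes are named where called in at least 2 comparisons with a log2 difference of at least 1 in 1 of them, or where a result turns on them, and the closest genes by the rule in the text. The members and lists were chosen with earlier results of these data known.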

Additional observations from a re-analysis of the deposited data

Results flagged for a closer look

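The D1 minus D2 difference of Adra2c differed between dorsal and ventral striatum by 1.0182 on the log2 scale (SE 0.25, limma adjusted p = 0.00835). All 15 D1 dorsal libraries lay above all 16 D2 dorsal libraries, whereas the ventral groups overlapped. The value was 1.00 within EM libraries (adjusted p = 0.0092).

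The same contrast was 0.786 for Hrh2 (SE 0.22, limma adjusted p = 0.0338), and 0.67 within EM libraries with adjusted p = 0.195.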

How the results depend on the processing

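The number of receptor genes called moved by more than 1.5 times under these settings, each given with the share of all genes called. Between D1 and D2 dorsal striatum it was 6 of 9 tested with no filter (17.2%) and 7 of 8 with all 5 groups in 1 fit (31.7%), against 3 of 5 (25.9%). In the fit of all 5 groups Adra1b, Adra2a and Hrh1 entered only with the cortical libraries, in which they are high. Between D1 and D2 ventral striatum it was 1 of 5 by edgeR (47.1%) and 1 of 5 after a term for each library's gene-read share (10.7%), against 2 of 5 (47.7%). With a filter of 5 CPM fewer genes were tested: dorsal against ventral striatum called 2 of 2 in D1 (35.8%) and 2 of 2 in D2 (30.9%), against 4 and 4, cortex 4 of 4 against D1 dorsal (55.4%) and 3 of 4 against D1 ventral striatum (64.4%), against 8 and 7, and the change between regions 1 of 2 (2.60%), against 2. The order of the groups then gave 11 steps of 20, against 18 of 32, a count over several pairs of groups. No single share of all genes goes with this count, and the shares by pair in the main fit are given with the order of the groups above. Dorsal against ventral striatum in D2 gave 2 of 5 within EM libraries (19.8%). The change between regions gave 1 of 5 with a pseudocount of 0.1 (2.41%), with scaling to the reads in genes (2.61%) and by edgeR (2.53%). Of all genes between D1 and D2 dorsal striatum, 1389 were called within EM libraries and 1658 with name code as a term, against 2871, with 3 receptor genes each time. Dorsal against ventral striatum in D2 called 2074 within OdP libraries, against 3189, and the change between regions 480 with name code as a term, against 313. For the number of males 11 genes were called, 0 with no filter, 27 after median-ratio scaling, 18 after quantile normalization and 25 by edgeR, none a receptor gene. Apart from the stated construction, the cause was not tested. Adra2b changed sign in 2 uncalled values: dorsal minus ventral striatum in D2 was -0.0533 within EM libraries, and the difference by males was -0.0233 after quantile normalization. Of the other values for single genes, 598 kept their direction and side of the threshold, 21 lost a call and 9 gained one. Scaling to the reads in genes moved the share of all calls that were D1-high from 49.6% to 59.7% in dorsal and from 50.5% to 66.1% in ventral striatum. Adra2c in D2 dorsal against ventral striatum was -0.54 with adjusted p = 0.0473, and without D2 ventral striatum replicate 2 it was -0.54 with adjusted p = 0.0606. A replicate block was added after the data were seen: libraries of 1 name code whose numbers run on across regions, with the same receptor and number of males, were treated as sets, although the labels do not say that they share mice. Deviations from the group means correlated over 0.1 across genes in 13 of 14, 11 of 13, 10 of 13 and 10 of 13 sets (D1 dorsal and ventral, D2 dorsal and ventral, cortex with D1 dorsal, cortex with D1 ventral). The median correlation was 0.398, 0.313, 0.224 and 0.274 within sets, against 0.0137, -0.0767, -0.0281 and 0.0011 for other pairs of libraries. Most sets thus deviated together and some did not, and in none of these comparisons did every library match best with its own set. The main fits took no account of these sets. With the block, over sets with both groups, the receptor calls numbered 4, 4, 8 and 8 in these comparisons, where 43.0%, 30.6%, 52.0% and 65.4% of all genes were called; the 8 in the last against 7 came from Hrh3, at -0.21 with adjusted p = 0.0424. The change between regions gave 3 calls of 6 tested, Adra2a entering at 1.14 (adjusted p = 0.00268), and 491 of all genes (4.14%) were called against 313. No other receptor call changed with the block. Genes under 1 CPM rest on few reads, which limits Adra1d in striatum most.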
